A study of Caenorhabditis elegans with 6 samples.

Results

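Argonaute proteins hold a small RNA and use it to find RNAs to silence or protect. The 10 genes described here, prg-1, csr-1, alg-1, alg-2, alg-3, alg-4, rde-1, ergo-1, sago-1 and sago-2, are Argonaute genes of Caenorhabditis elegans with known small RNA partners. They were found by matching the sequence names printed on the arrays to gene symbols, and all 10 of 10 had a probe, out of 18999 features tested (17889 named genes). In all 14 probes covered them, 3 for prg-1, 3 for alg-4 and 1 for each other gene. The comparison set 4 of them, prg-1, csr-1, alg-3 and alg-4, which act in the germ line, against alg-1 and alg-2, which carry microRNAs in the soma. The remaining 4 genes, rde-1, ergo-1, sago-1 and sago-2, are described beside them.

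RNA of whole nematodes (strain N2) exposed to chlorpyrifos (CPF, 0.5 mg/L) together with diazinon (DZN, 1 mg/L), 2 organophosphate pesticides that block acetylcholinesterase, was hybridised together with control RNA on 6 two-colour arrays. Both groups started as eggs on NGM agar with OP50 bacteria and acetone, the solvent of the pesticides, at 24 °C, and each sample pooled many worms from culture dishes. The mixture was in Cy5 on 3 arrays and in Cy3 on the other 3. The labels give 72 h and stage L3/L4, while the methods of the study give fewer hours and late L3, so their age remains unsettled, and levels of germ-line transcripts depend on age. Each ratio below is mixture over control on the log2 scale, so that a negative value means less transcript with CPF+DZN, and errors are SDs over the 6 arrays.

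In the germ line PRG-1 is the Piwi protein that binds piRNAs, and CSR-1 binds small RNAs made against genes that the germ line expresses. ALG-3 and ALG-4 are close relatives of each other that act while sperm form. ALG-1 and ALG-2, also close relatives, form the complex through which microRNAs repress their targets, and they are used in most tissues. In a whole worm the share of a transcript that comes from each tissue is not measured, and fewer germ cells and less RNA per germ cell cannot be told apart.

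A spot is called well above background here where its foreground median exceeds the local background by more than 2 background SDs. That held for 44.1 to 54.9% of spots of mixture RNA and 47.9 to 58.1% of spots of control RNA. Mixture in Cy5 replicate 3 had the lowest mean correlation across features with the other arrays (0.276, others 0.464 to 0.526). The scanner headers number the extracts, with 6 different numbers for control and 5 for mixture, because replicate 2 in Cy5 and replicate 1 in Cy3 share theirs. What the p-values measure is variation among arrays, part of which may be technical, and precision is limited by having only 6.

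Of the 10 Argonaute genes 1 passed the test, alg-2, which rose, and none passed as lower, in limma with a Benjamini-Hochberg adjusted p under 0.05 over all 18999 features. Over all features 13.9% were called, 6.74% as higher and 7.13% as lower. At an unadjusted p under 0.05, 5 members were lower, beside 14.9% of all features, and 2 were higher, beside 13.9%. The 4 germ-line members had mean ratios below 0 and alg-1 and alg-2 had mean ratios above 0. The remaining genes lay between these groups or overlapped them. Without mixture in Cy5 replicate 3 limma called all 4 germ-line members lower, beside 12.8% of all features, and alg-2 higher, beside 11.4%. Without any other single array it called no member, beside 0.94 to 2.68% of all features lower and 1.88 to 3.45% higher. Normalized by median centring rather than loess, it called prg-1, csr-1 and ergo-1 lower, beside 18.1% of all features, and no member higher, beside 3.57%.

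The brightest probe of prg-1 had ratios of -0.52, -0.65 and 0.21 on mixture in Cy5 replicates 1 to 3 and -0.53, -0.35 and -0.73 on mixture in Cy3 replicates 1 to 3. It was lower with the mixture on 5 arrays and higher on mixture in Cy5 replicate 3. The mean was -0.43 ± 0.34 (SD, n = 6), a 1.35-fold lower level, with a 95% interval of -0.72 to -0.14 and an adjusted p of 0.0584 in limma. The same probe had a mean normalized log2 intensity of 11.50 ± 0.43 in the mixture and 11.93 ± 0.62 in the control samples. The other 2 probes of the gene were lower on all 6 arrays, at -0.52 ± 0.30 (limma, adjusted p = 0.0228) and -0.66 ± 0.36 (adjusted p = 0.0213, mixture well above background on 4 arrays), when each probe was tested as a feature. The 3 probes of prg-1 thus gave the same direction and differed in whether they passed.

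The probe of csr-1 had ratios of -0.93, -1.08 and 0.24 on the Cy5 arrays (mixture in Cy5) and of 0.05, -0.75 and -0.33 on the Cy3 arrays (mixture in Cy3). The values at or above 0 were those of replicate 3 in Cy5 and replicate 1 in Cy3. The mean of -0.47 ± 0.54 (95% interval -0.89 to -0.04) had an adjusted p of 0.138 in limma, and in the mixture the probe was well above background on 5 arrays. The gene is essential, since embryos without CSR-1 do not segregate their chromosomes properly.

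The spermatogenesis genes alg-4 and alg-3 differed in signal over background. For alg-4 the brightest probe was well above background on all 6 arrays in both groups, with ratios of -1.61, -1.39 and 0.11 on the Cy5 arrays and of 0.28, -0.13 and -0.56 on the Cy3 arrays. The mean of -0.55 ± 0.79 (95% interval -1.07 to -0.03, adjusted p = 0.150 in limma) had the widest spread of the 10 genes. Mixture in Cy5 replicates 1 and 2 were far below the other 4 arrays, whose mean was -0.08. They form a slide series of their own, meaning that a gap of 10 or more separates their slide numbers from the rest. This grouping was made here, and neither labels nor scanner headers name it as a batch. The other 2 probes of alg-4 were well above background on no array and give no level. For alg-3 the ratios were 0.01, -0.45 and 0.22 in the first orientation and -0.40, -0.49 and -0.48 in the second. Its mean was -0.26 ± 0.30 (95% interval -0.49 to -0.04, adjusted p = 0.119 in limma), and its probe was dim, well above background on 3 arrays in the mixture and 4 in the control. Because ALG-3 and ALG-4 are close paralogs, their probes may share transcripts, which was not tested.

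**Figure D1:**
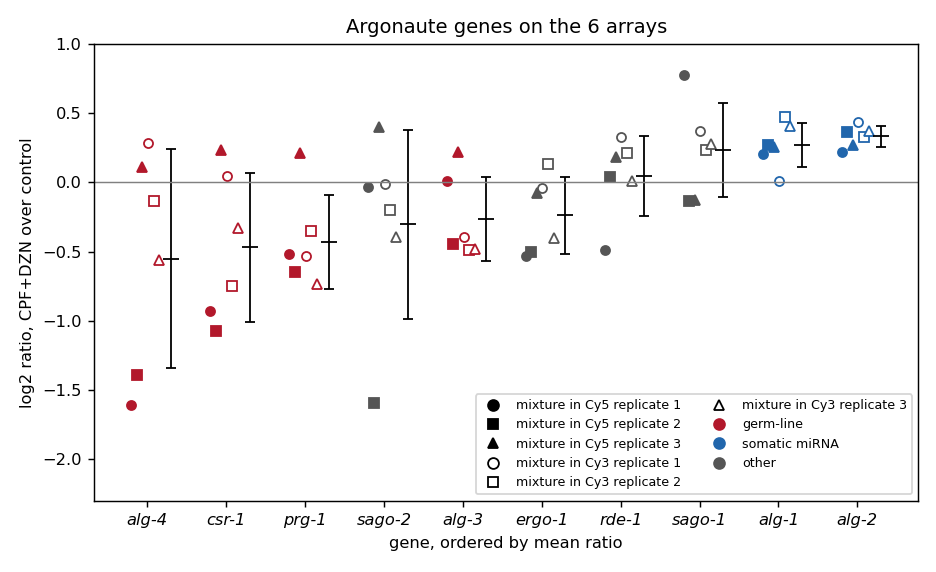
Log2 ratio of CPF+DZN over control (vertical axis) of the 10 Argonaute genes (horizontal axis, ordered by mean). Each point is an array, filled where the mixture was in Cy5 and open where it was in Cy3, and the bar beside each gene is the mean ± SD of the 6 arrays. All 6 points of alg-1 and alg-2 lie above 0, while prg-1 has 5 and csr-1, alg-3 and alg-4 have 4 below it.

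The somatic pair lay on the other side of 0 and varied less. For alg-1 the ratios were 0.20, 0.27 and 0.26 where the mixture was in Cy5 and 0.01, 0.47 and 0.41 where it was in Cy3, higher on all 6 arrays. The mean of 0.27 ± 0.16 (1.21-fold, 95% interval 0.07 to 0.47) had an adjusted p of 0.0739 in limma. For alg-2 they were 0.22, 0.36 and 0.27 in the first orientation and 0.44, 0.33 and 0.37 in the second. The control intensity of the alg-2 probe on the 6 arrays, in the same order, was 8.70, 8.75, 7.86, 7.87, 7.80 and 8.12, and the mixture intensity 8.92, 9.11, 8.13, 8.31, 8.13 and 8.49 (log2). These intensities are normalized and differ on each array by the ratio, so a brighter mixture channel on every array restates its sign. The ranges over arrays overlapped. The mean ratio of 0.33 ± 0.08 (1.26-fold, 95% interval 0.17 to 0.49) passed with an adjusted p of 0.0220 in limma, and over all features 8.76% were higher on all 6 arrays, as both genes were. Under median centring the ratio of alg-2 was 0.06 and that of alg-1 was -0.05, so that the direction of alg-1 turned, and in the authors' value table the adjusted p of alg-2 was 0.122 and that of alg-1 was 0.0155.

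**Figure D2:**
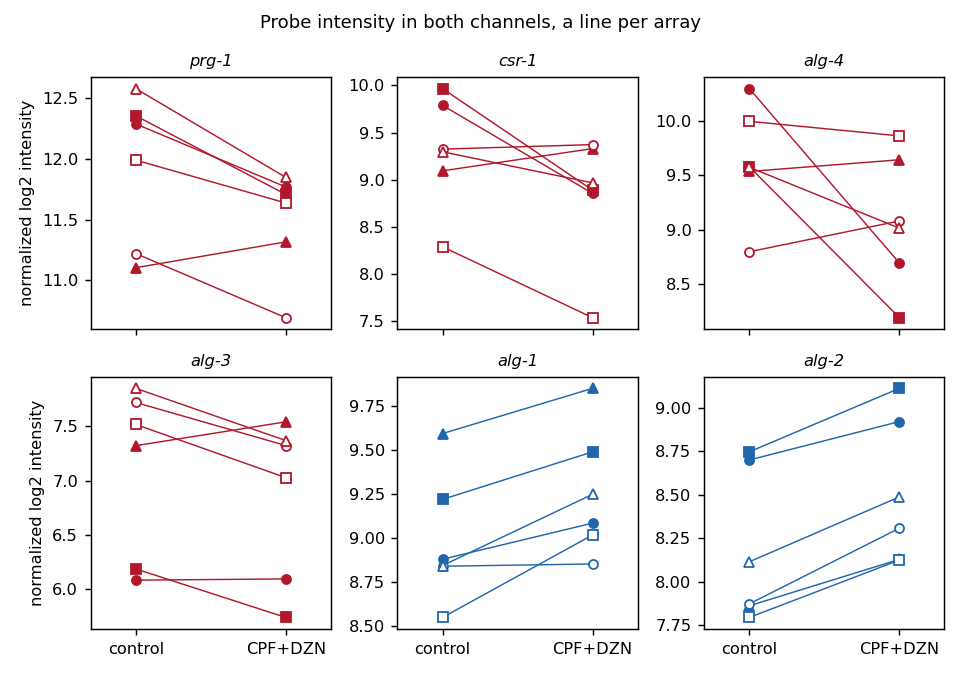
Normalized log2 intensity of the brightest probe of each of the 6 genes compared, in the control channel and the CPF+DZN channel, with a line per array and an axis range of its own for each gene. Filled markers are arrays with the mixture in Cy5 and open markers those with it in Cy3. The lines of alg-2 all rise, by 0.22 to 0.44, and those of prg-1 fall on 5 of 6 arrays.

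Between the 2 groups the question was whether germ-line Argonautes differed from alg-1 and alg-2 in their response. On mixture in Cy5 replicates 1 to 3 the mean ratio of the 4 germ-line members was -0.76, -0.89 and 0.19, and on mixture in Cy3 replicates 1 to 3 it was -0.15, -0.43 and -0.53. The mean of alg-1 and alg-2 on the same arrays was 0.21, 0.32, 0.26, 0.22, 0.40 and 0.39. The germ-line mean was the lower one on all 6 arrays, by 0.07 on mixture in Cy5 replicate 3 and by 0.37 to 1.21 on the others. The mean difference was -0.73 ± 0.42 (SD, n = 6), from -0.43 ± 0.40 in the germ-line group and 0.30 ± 0.08 in the somatic pair. No test was made of this mean over chosen genes.

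Gene by gene, all 8 differences between a germ-line member and alg-1 or alg-2 had a negative mean, and 6 of the 8 were negative on all 6 arrays. An exact sign-flip permutation test over 6 arrays cannot give a p under 0.03125 (two-sided), and after Benjamini-Hochberg adjustment over the 8 pairs this smallest value became 0.0417. It was reached by prg-1 against alg-1 (-0.70 ± 0.38) and alg-2 (-0.76 ± 0.38), by alg-3 against alg-1 (-0.53 ± 0.38) and alg-2 (-0.60 ± 0.37), by csr-1 against alg-2 (-0.80 ± 0.53) and by alg-4 against alg-2 (-0.88 ± 0.76). In the same exact permutation test csr-1 and alg-4 against alg-1 (-0.74 ± 0.61 and -0.82 ± 0.83, negative on 5 arrays each) had p = 0.09375. The pairs share arrays and a common partner, so the 8 tests are not independent. The members were also chosen with earlier results of these data known, so these p-values give no independent support for a group difference. For alg-3 the count of 6 arrays includes 2 on which its probe was above background in neither channel, and over the other 4 arrays the differences were -0.57 and -0.64, where an exact permutation test cannot go below 0.125. If the shared extract number stands for a shared mixture extract, there were 5 mixture samples. With the 2 arrays that share it averaged, all 8 differences were negative on each of 5 units, and each had the smallest p this exact permutation test then allows, 0.0625, so that no pair could pass.

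**Figure D3:**
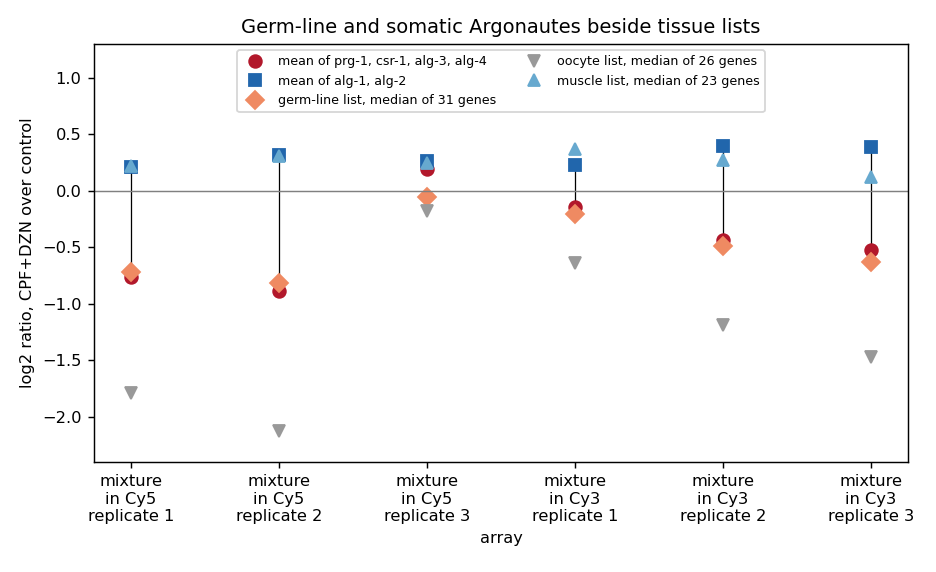
Mean log2 ratio of CPF+DZN over control (vertical axis) of prg-1, csr-1, alg-3 and alg-4 and of alg-1 and alg-2 on each array (horizontal axis), joined by a line, with the median ratio of the germ-line, oocyte and muscle lists beside them. The germ-line mean lies below the somatic mean on all 6 arrays, with the shortest line on mixture in Cy5 replicate 3.

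The size of the difference varied between arrays. It was -1.09 in the slide series that held mixture in Cy5 replicates 1 and 2 and -0.55 in the series with both orientations, -0.75 over the arrays with the mixture in Cy5 and -0.71 over those with it in Cy3. On the 3 arrays scanned on the same day it was -0.91. Markers of germ-line tissue moved with it. In the germ-line list 12 of 31 genes passed as lower and 0 as higher, with array medians from -0.82 to -0.05. The shares over all features, for this list and the tissue lists below, were 7.13% lower and 6.74% higher. Each of the 31 had signal over background in mixture and control on 3 or more arrays. Of 26 oocyte genes 23 fell (array medians from -2.12 to -0.18), and of 51 sperm genes 26 fell and 1 rose (-1.28 to -0.08). By the same measure of signal over background, 24 of these oocyte genes and 41 of these sperm genes had signal. Without mixture in Cy5 replicate 3 limma called 23 oocyte and 37 sperm genes lower, without any other single array 1 to 9 and 4 to 8, and with plain background subtraction 0 and 1. In the same settings 12.8%, 0.94 to 2.68% and 0.16% of all features were lower. The least negative median of each list was that of mixture in Cy5 replicate 3. The mean normalized log2 level of the germ-line list was 8.87 to 9.89 over the mixture samples and 9.56 to 10.06 over the controls. The part of these tissue markers in the Argonaute ratios was not tested. Of 23 muscle genes 9 rose and none fell, as did 9 of 24 intestine genes and 1 of 25 neuron genes. Only 14 neuron genes had signal over background in mixture and control on 3 or more arrays, against 22 muscle and 23 intestine genes. The muscle median was 0.26 and the intestine median 0.16. Under median centring these became 0.07 and -0.04, with 2 muscle genes higher and 3 intestine genes higher and 1 lower. Of all features 3.57% were then higher and 18.1% lower. The counts higher were 9 muscle, 11 intestine and 8 neuron genes without mixture in Cy5 replicate 3, and without any other single array 2 to 4, 4 to 7 and 0. Of all features 11.4% were higher without mixture in Cy5 replicate 3 and 1.88 to 3.45% without any other single array.

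The other members of the group did not pass. RDE-1 receives the first small RNAs of RNA interference, and the ratios of rde-1 ran from -0.49 to 0.33, with a mean of 0.05 ± 0.29 (95% interval -0.20 to 0.29). SAGO-1 and SAGO-2 bind the secondary small RNAs that follow. The ratio of sago-1 was above 0 on 4 of 6 arrays and averaged 0.23 ± 0.34 (95% interval -0.07 to 0.53, limma, adjusted p = 0.290). That of sago-2 ran from -1.59 to 0.40, with a mean of -0.30 ± 0.68 (95% interval -0.84 to 0.23), and its probe was well above background on 3 arrays in the mixture and 4 in the control. ERGO-1 binds small RNAs of oocytes and embryos. The ratios of ergo-1 were -0.54, -0.51 and -0.08 where the mixture was in Cy5 and -0.04, 0.13 and -0.40 where it was in Cy3, with a mean of -0.24 ± 0.28 (adjusted p = 0.172 in limma). Ordered from the lowest mean the genes ran alg-4, csr-1, prg-1, sago-2, alg-3, ergo-1, rde-1, sago-1, alg-1 and alg-2. Of the 9 neighbouring gaps 1, from ergo-1 to rde-1 (0.29 ± 0.19, on 6 of 6 arrays), was larger than the SD of that gap.

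Other Argonaute genes were lower with CPF+DZN in part. Of 16 measured, 5 fell and none rose, beside 7.13% of all features lower and 6.74% higher. The median ratio was -0.28 (all features 0.00), and 7 were lower on all 6 arrays, against 8.62% of all features. HRDE-1 carries silencing between generations in the germ-line nucleus, and the ratios of hrde-1 were -1.25, -1.72 and -0.50 in the first orientation and -0.28, -0.89 and -0.53 in the second (mean -0.86 ± 0.54, limma, adjusted p = 0.0155). The mean of prg-2, a close copy of prg-1, was -0.74 ± 0.56 (adjusted p = 0.0359), and that of wago-2 was -0.71 ± 0.60 (0.0469). For alg-5, a germ-line relative of alg-1, it was -0.47 ± 0.27 (0.0306), and for C14B1.7, known by its sequence name, -0.75 ± 0.31 (0.0107). Since prg-1 and prg-2 are nearly alike in sequence, their probes may read both. The probes of 4 of the 16, wago-5, wago-11, H10D12.2 and ZK218.8, were well above background on no array.

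**Figure D4:**
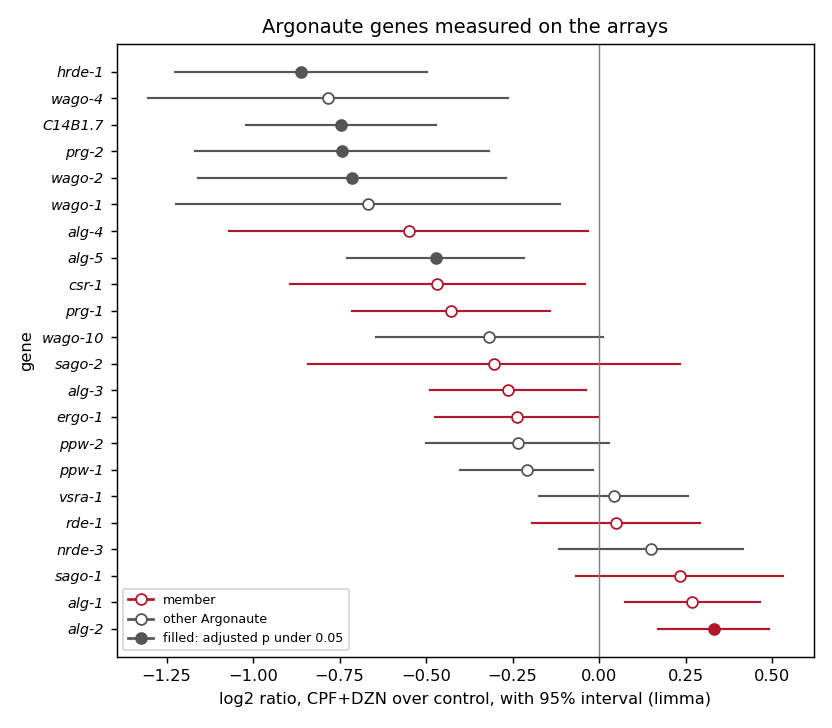
Mean log2 ratio of CPF+DZN over control (horizontal axis) with its 95% interval from limma for 22 Argonaute genes (vertical axis), the 10 members in red and 12 others with a signal above background in grey. Filled points passed an adjusted p of 0.05: alg-2 among the members on the right and 5 of the others on the left.

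Some of the genes that make small RNAs fell as well. Of 38 genes of small RNA production 8 fell and 1 rose, with a median of -0.21, beside 7.13% of all features lower and 6.74% higher. The fall was -0.49 ± 0.16 (limma, adjusted p = 0.0126) in tofu-5, -0.41 ± 0.53 (0.0209) in tofu-4 and -0.62 ± 0.41 (0.0216) in tofu-6, genes needed for piRNAs, and -0.87 ± 0.49 (0.0190) in tost-1, whose protein joins a complex with TOFU-6. It was -0.56 ± 0.27 (0.0187) in henn-1, the methyltransferase that protects piRNA ends, and -0.35 ± 0.15 (0.0243) in drsh-1, the Drosha enzyme that starts microRNA maturation. The ratios of tofu-4 were 0.326, -0.071 and -0.12 on the Cy5 arrays and -0.835, -0.879 and -0.903 on the Cy3 arrays. Its fall thus came mainly from 1 dye orientation. The riser was rrf-2 (0.35 ± 0.19, adjusted p = 0.0428), an RNA-dependent RNA polymerase gene, named after its value was seen. Its probe was well above background on 3 arrays in each group. No gene of the list was called higher with print-tip loess, without background correction or in the authors' table. The same held without any 1 array other than mixture in Cy5 replicate 3. For dcr-1, the Dicer gene, also named after its value was seen, the mean was -0.15 ± 0.10 (limma, adjusted p = 0.220).

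Of 10 partners of microRNA Argonautes 1 fell and 1 rose, near the shares over all features (7.13% and 6.74%). The gene cgh-1, which codes for a helicase of germ granules and P bodies, fell (-0.89 ± 0.44, limma, adjusted p = 0.0148), and ain-1, which codes for the GW182 protein that ALG-1 and ALG-2 bind, rose (0.48 ± 0.25, 0.0214). Leaving out any 1 array other than mixture in Cy5 replicate 3 left no partner called higher, and leaving out mixture in Cy3 replicate 2 or 3 left none called lower. Without mixture in Cy5 replicate 3, limma called 5 of the 10 partners lower, beside 12.8% of all features. With median centring 5 were called lower, beside 18.1%, and with the slide series as a block 4, beside 12.1%. The second GW182 gene, ain-2, named after its value was seen, was at -1.01 ± 1.17 and did not pass (0.0822). Of 12 genes of RNA uptake and nuclear silencing 1 was called, sid-2, which codes for the gut protein that takes up double-stranded RNA, and it was higher, beside 6.74% of all features. Its ratios ran from 0.60 to 0.94, higher on all 6 arrays, with a mean of 0.79 ± 0.15 (adjusted p = 0.00144). Of these 12 genes limma called 4 lower without mixture in Cy5 replicate 3, beside 12.8% of all features, and none without any other single array. With median centring it called 3 lower, beside 18.1%.

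Without mixture in Cy5 replicate 3 the calls of the 2 larger small RNA lists grew too, to 9 of 16 further Argonautes and 14 of 38 small RNA production genes lower, beside 12.8% of all features. In that setting limma called prg-1 (-0.56, adjusted p = 0.00328), csr-1 (-0.67, 0.00528), alg-3 (-0.34, 0.0345) and alg-4 (-0.82, 0.00275) lower. Leaving out any 1 of the other 5 arrays took the call of alg-2 away (adjusted p from 0.0584 to 0.0802), with ratios between 0.31 and 0.35. Without mixture in Cy3 replicate 3, limma called 0 of the 16 further Argonautes, 0 of the 38 small RNA production genes and 0 of the 31 germ-line genes lower, against 6, 14 and 17 at an unadjusted p under 0.05. Without any 1 of the remaining 4 arrays it called 1 to 2, 1 to 3 and 1 to 5. Lower among all features were 0.94% without mixture in Cy3 replicate 3 and 1.34 to 2.68% without any 1 of those 4. With plain background subtraction limma called none of the 3 lists' genes lower (6, 10 and 17 unadjusted), beside 0.16% of all features, while their medians were -0.50, -0.29 and -0.58.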

How the data were processed

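For each channel the deposited scanner files give intensity values of every spot (foreground median, background median and SD) and the percent of saturated pixels, as scanned and without normalization per the file headers. No spot of a member had saturated pixels. The value table of the authors holds log2 ratios normalized by loess within arrays and Aquantile between arrays, per the methods, with limma 3.2.3 named in the submitters' processing notes. How its background was corrected is not stated there. It correlated with the ratios computed here at r = 0.846 to 0.921 and served as an alternative.

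Here, limma 3.58.1 in R 4.3.3 was used. Background was corrected by normexp (offset 50), and ratios were normalized by loess (weight 0 for control spots) and Aquantile, then turned to mixture over control. Of 23232 spots, 22490 were C. elegans probes. Of these 17412 were named through a table of the platform and 3968 through their sequence names and the RefSeq gene table (WBcel235, names only), 35 had disagreeing names, and 1110 had no gene. The probe with the highest mean intensity stood for a gene with several. A model of the mixture effect and a dye effect was fitted with lmFit and eBayes to all features. Pairs of genes were compared with an exact sign-flip permutation test.

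Always named were the 10 members and, of the 4 small RNA lists, up to 6 called genes with the smallest p with signal over background in mixture and control on 3 or more arrays. The members and all gene lists were chosen with earlier results of these data known. The steps were tested on simulated arrays with known changes. Alternatives covered background correction, normalization, the dye term, dim probes, multiple probes, the authors' table, each array left out, a replicate block, the slide series and the scan day. No spot was removed by its flag, since no source used explains the flags.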

Additional observations from a re-analysis of the deposited data

How the results depend on the processing

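Over 21 alternatives, prg-1, csr-1, alg-3 and alg-4 had ratios below 0 in each and alg-2 above 0 in each. The call of alg-2 was lost in 11 and that of prg-1 was gained in 7. The cause was not tested. The number of called features was 2636. It was 153 with background subtraction, 4118 with median centring (679 higher and 3439 lower, against 1281 and 1355), 950 with a replicate block, 891 within the slide series with both orientations, 4308 when the slide series was a block, and 535 to 4609 with 1 array left out. Members called lower, 0 in the report, were 1 (prg-1) with print-tip loess (7.44% of all features) or the mean of all probes (7.18%). They were 1 with only probes well above background (prg-1, 13.8%) and in the authors' table (alg-3, 6.45%). With median centring (18.1%), on the shared scan day (9.55%) or with the slide series as a block (12.1%) they were 3. With 1 array left out they were 0 to 4 (0.94 to 12.8%). On the shared scan day sago-1 was called higher (0.52) in place of alg-2. Members called higher, 1 in the report, were 0 to 1 with 1 array left out (1.88 to 11.4%). They were 0 with background subtraction, median centring, the replicate block and the slide series with both orientations (0.64 to 3.57% of all features). The replicate numbers did not pair the arrays (same-number correlations -0.233 to -0.00647), and the replicate block left alg-2 at an adjusted p of 0.0774. The mean difference between the groups was below 0 in all alternatives. It was -0.34 in the authors' table and -0.39 in the fit with a dye effect within the slide series with both orientations. That fit weights the orientations equally, while the plain mean of those 4 arrays was -0.55. In the slide series with both orientations and on the shared scan day only 1 array had the mixture in Cy5, so the dye term fits that array exactly. The scan day as a block was chosen after seeing the data and changed no call of a member. The averaged arrays and the arrays with alg-3 signal, as tests of pairs, were chosen then too. The exact permutation tests of pairs cannot go below 0.0625 with 5 arrays, so every such call was lost when 1 array was left out. After adjustment over the pairs no call would be left with print-tip loess, median centring or background subtraction. Unadjusted, those of alg-3 against alg-1 and alg-2 were lost (-0.39 and -0.53, -0.29 and -0.40, -0.80 and -0.93). The last had 4 arrays, too few to pass. With no background correction the call of csr-1 against alg-2 was lost (-0.64) and that against alg-1 gained (-0.64). All 6 were lost in the authors' table, where 3 to 5 arrays had both values, too few to pass.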

Other observations

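Of the 60 values that the 10 members could have in the authors' ratios, 12 were missing. All 8 values of csr-1, alg-4, ergo-1 and sago-1 on mixture in Cy5 replicates 1 and 2 were among them. These are the arrays on which the scanner ratios of csr-1 (-0.93 and -1.08) and alg-4 (-1.61 and -1.39) were lowest. Over all probes the median absolute scanner ratio was 0.299 to 0.684 where the authors give no value and 0.152 to 0.206 where they give one. The methods of the study describe removing values that a linear model per toxicant marked as outliers. Whether the missing values were removed in that step was not tested. The mean of the 4 values given was -0.13 for csr-1 and -0.18 for alg-4. In the fit with a dye effect, where mixture in Cy5 replicate 3 is the only array of its orientation with a value, the ratios were -0.02 and -0.15.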
